A study of Mus musculus with 27 samples.

Results

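The genes described here are 6 class 3 semaphorins (Sema3a, Sema3b, Sema3c, Sema3d, Sema3e and Sema3f) and the 2 neuropilins, Nrp1 and Nrp2. They were chosen by name, as a ligand and receptor family, and are 8 of the 23279 genes with a value. RNA was sequenced from limb bud-like tissue made from mouse embryonic stem cells (ES-LB), from limb buds and from 3 other embryonic tissues. ES-FLB and ES-HLB are forelimb and hindlimb bud types of ES-LB on day 9 of culture, from the line EB5 Hand2::GFP +/-, which carries a fluorescent reporter at 1 allele of Hand2, and the Hand2::mEGFP-positive cells were sorted for sequencing. Per the methods, both types had BMP4 and Matrigel, then the BMP inhibitor LDN193189, Wnt3 and hydrocortisone. Retinoic acid was added for ES-FLB, and the retinoic acid receptor antagonist AGN193109 was used for ES-HLB. The embryonic groups were dissected whole from Slc:ICR embryos, with no sorting named: forelimb and hindlimb buds (FLB and HLB) labelled E10.0 (early) or E10.5, and the branchial arch (BA), cardiac tissue (Ca) and tail bud (TB) at E10.5. Each of the 9 groups has 3 libraries, except the E10.5 HLB with 2, because its replicate 2 had 0 CPM for 13642 genes, 7 of the 8 genes described here among them, and was left out throughout. The stage of the early limb buds is not settled: the labels give both the same day, whereas the study's text dates the early FLB before that day and the early HLB after it. Early FLB and early HLB may therefore not be matched in stage.

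Class 3 semaphorins are secreted guidance proteins that steer growing axons, migrating neural crest cells and blood vessels, mostly by repulsion. Most of them bind a neuropilin at the cell surface, and the neuropilin passes the signal through a plexin, a transmembrane receptor that acts on the cytoskeleton. Sema3a signals mainly through Nrp1 and Sema3f mainly through Nrp2, while Sema3e can bind Plxnd1 without a neuropilin. Neuropilins also bind members of the VEGF family, so the same receptors serve vessel growth. In the limb bud, semaphorins are known for setting when and where motor and sensory axons enter.

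Annotated on GRCm38 (GENCODE), 4 of the semaphorin genes lie on the plus strand of chromosome 5, in the order Sema3d (chr5:12383385-12588948), Sema3a (chr5:13125414-13602565), Sema3e (chr5:14025276-14256689) and Sema3c (chr5:17574281-17730268). The gaps between them are 536465, 422710 and 3317591 bases. Sema3b (chr9:107597674-107609229) and Sema3f (chr9:107681500-107710475) lie 72270 bases apart on the minus strand of chromosome 9. Nrp1 (chr8:128358604-128503363) and Nrp2 (chr1:62703285-62818695) are both on the plus strand. No other protein-coding gene overlaps any of the 8, while 1 to 4 noncoding annotations overlap each of Sema3a, Sema3d, Sema3e, Nrp1 (Mir1903) and Nrp2.

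RefSeq promoter windows on GRCm38.p6, from 250 bases before to 50 bases after a start, were at hand for 6 of the 8 genes. Those of both neuropilins are shown because the balance of the pair is among the results below, and that of Sema3c because of the 8 genes it differed most between the ES-LB types, of which 1 was given retinoic acid. Capitals mark CANNTG, the E-box letters that Hand2 and other bHLH factors can bind, and AGGTCA on either strand (TGACCT on the strand shown), the half-site of retinoic acid receptors.
Nrp1 (chr8:128358823-128359122, plus strand): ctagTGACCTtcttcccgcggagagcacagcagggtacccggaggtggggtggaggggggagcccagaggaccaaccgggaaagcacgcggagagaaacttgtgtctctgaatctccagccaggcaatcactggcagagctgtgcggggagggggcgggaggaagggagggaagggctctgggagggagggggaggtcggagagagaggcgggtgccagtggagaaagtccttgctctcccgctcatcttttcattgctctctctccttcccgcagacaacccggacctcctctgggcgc
Nrp2 (chr1:62703067-62703366, plus strand): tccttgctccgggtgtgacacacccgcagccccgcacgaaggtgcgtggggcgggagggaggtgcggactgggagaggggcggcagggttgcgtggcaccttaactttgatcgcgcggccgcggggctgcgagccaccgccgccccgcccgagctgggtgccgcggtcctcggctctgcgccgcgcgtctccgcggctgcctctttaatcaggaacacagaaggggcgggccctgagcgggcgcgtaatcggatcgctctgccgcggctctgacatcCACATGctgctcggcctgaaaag
Sema3c (chr5:17574566-17574865, plus strand): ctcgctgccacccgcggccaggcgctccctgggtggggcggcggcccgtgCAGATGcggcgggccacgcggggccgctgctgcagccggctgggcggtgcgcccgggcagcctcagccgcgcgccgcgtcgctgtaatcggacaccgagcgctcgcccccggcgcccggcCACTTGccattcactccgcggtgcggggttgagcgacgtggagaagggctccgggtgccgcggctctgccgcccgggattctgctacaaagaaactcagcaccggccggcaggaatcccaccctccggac
Nrp1 had 0 CANNTG and 1 AGGTCA, Nrp2 had 1 and 0, and Sema3c had 2 and 0. CANNTG was in 72.3% and AGGTCA in 16.3% of all 32851 windows of the same length. The windows of Sema3a, Sema3d and Sema3e held 2, 3 and 2 CANNTG and 0 AGGTCA. The start used lies 271370 bases inside the gene's GENCODE span for Sema3a, 535 for Sema3c and 469 for Nrp1. The windows of these genes thus lie wholly inside the spans. These matches describe the letters only, and binding was not measured.

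Values are CPM, reads scaled to a fixed total per library, after a scaling between libraries by factors of 0.891 to 1.08. A library held between 5543760 and 22142509 reads, and 3 reads, taken as the least level that counts as detected, were worth 0.135 to 0.541 CPM. The early limb buds were sequenced deepest (19642121 to 22142509 reads) and the E10.5 limb buds least (5543760 to 5908873), so stage and sequencing depth cannot be told apart between them. Limb labels were checked with Tbx5, the forelimb factor, at 70.6 to 162 CPM in the 3 forelimb groups and 0.179 to 3.14 in the 3 hindlimb groups, and with Pitx1, the hindlimb factor, at 69.7 to 238 CPM in the hindlimb groups and 0.850 to 7.66 in the forelimb groups. Summed over 10 limb mesenchyme markers, ES-LB libraries (1998 to 2137 CPM) were near the E10.5 limb buds (1872 to 2081), but the sum hides opposite changes. Against the E10.5 limb bud of its type, 3 markers were higher and 5 lower in ES-FLB, and 4 higher and 6 lower in ES-HLB. That threshold, an adjusted p of 0.001, was passed by 52.4% and 53.5% of all genes. Hand2, whose reporter the ES-LB cells were sorted on, is among the 10. Cardiac muscle markers summed to 22243 CPM or more in Ca and at most 96.3 elsewhere, tail bud markers to 256 CPM or more in TB and at most 6.33 elsewhere, and branchial arch markers to 485 CPM or more in BA and at most 60.4 elsewhere. Summed over 11 endothelial markers, ES-LB had 46.2 to 66.0 CPM and the limb buds 327 to 452. Surface ectoderm markers (119 to 249 against 340 to 579 CPM) and muscle precursor markers (11.2 to 21.4 against 38.7 to 103) were also lower in ES-LB, and the part of these cells in the ES-LB results was not tested. Nothing in the labels says that libraries of 1 group come from separate cultures or litters, so p-values measure the spread between these libraries, which may be technical. In bulk tissue, fewer cells of a type and less RNA per cell cannot be told apart.

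All 8 genes were detected in every library used. Per kilobase of exon, Sema3a (19.96 CPM per kb) ranked first in the early FLB, Sema3f in the early HLB (15.4) and BA (15.8), Nrp2 in the E10.5 FLB (25.3), E10.5 HLB (22.3), ES-HLB (14.4) and TB (21.5), and Nrp1 in Ca (25.0) and, barely above Nrp2 (13.2), in ES-FLB (13.3). Sema3b and Sema3e ranked seventh and eighth in all 9 groups, at 0.145 to 1.96 CPM per kb. Each gene had its own order of tissues: Sema3a was highest in the early FLB, Sema3b, Sema3c, Sema3d and Nrp1 in Ca, Sema3e in TB, and Sema3f and Nrp2 in the E10.5 FLB.

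**Figure D1:**
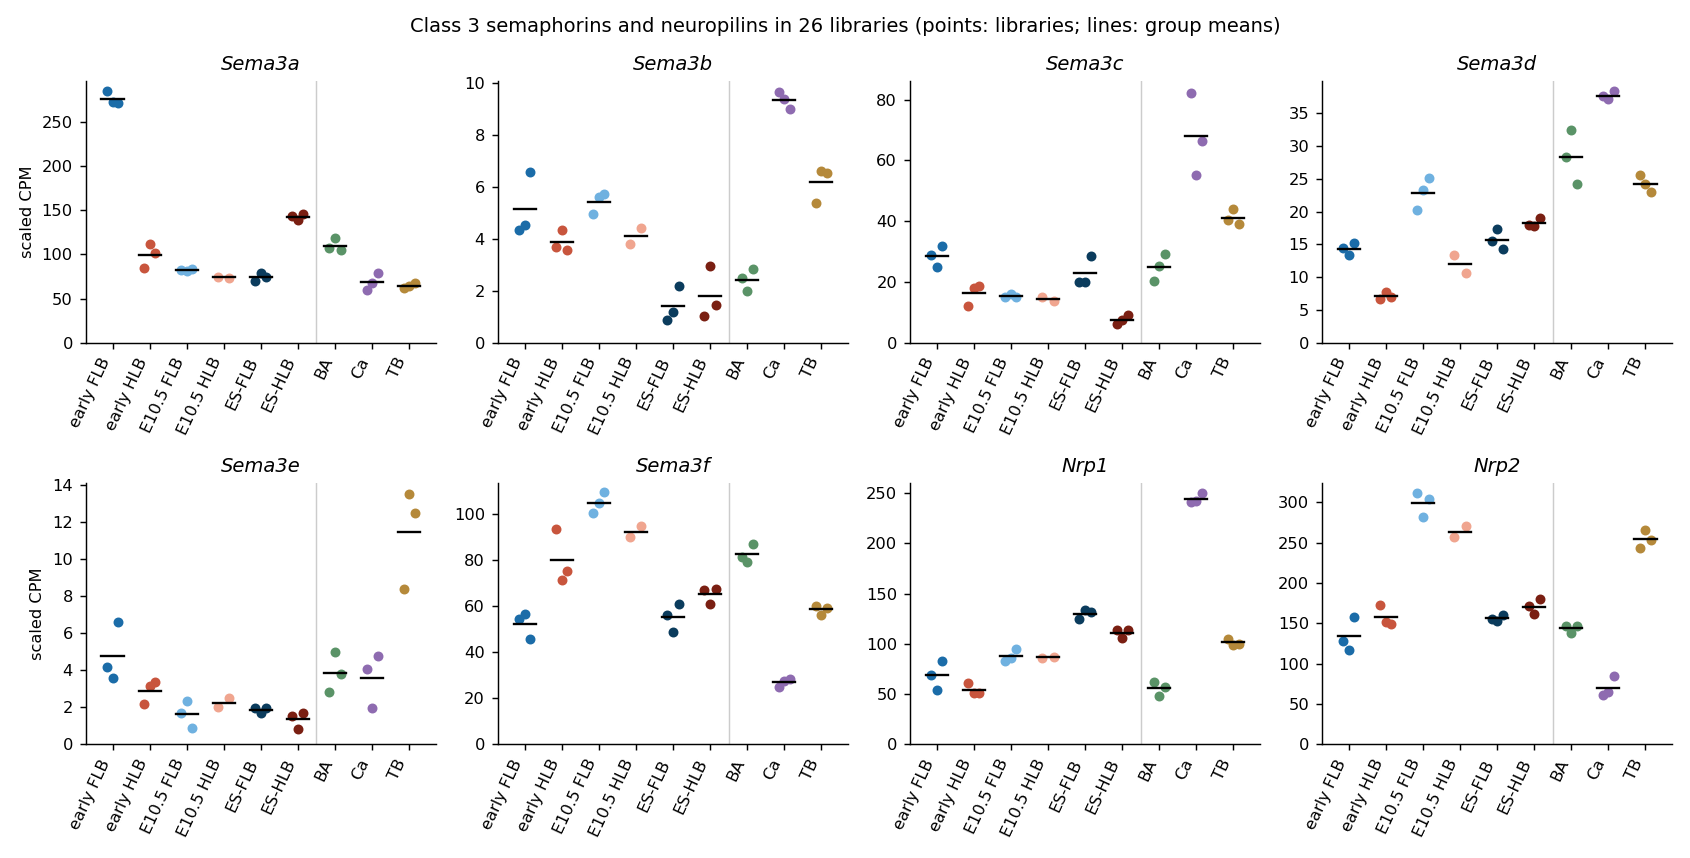
Scaled CPM of the 8 genes (1 panel each, axis from 0) in 26 libraries of 9 groups; points are libraries and lines are group means. The early FLB stands apart for Sema3a (272 to 286 CPM), Ca for Nrp1 (241 to 250 CPM) and TB for Sema3e (8.36 to 13.5 CPM).

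Sema3a, the repellent of sensory and motor axons that signals through Nrp1, had its highest level in the early forelimb bud. The early FLB libraries had 286, 273 and 272 CPM, and the early HLB libraries 84.2, 111 and 102. At E10.5 the FLB had 82.4, 80.9 and 83.3 CPM and the HLB 74.6 and 73.8. Every early FLB library was thus above every other limb bud library. In culture the order of the limb types was the opposite: ES-FLB had 70.4, 78.7 and 74.9 CPM and ES-HLB 144, 139 and 146. Outside the limb, BA had 107, 119 and 105 CPM, Ca 60.1, 67.9 and 79.5, and TB 61.7, 64.1 and 67.2. In order of level, the early FLB and ES-HLB each stood clear of the next group, BA overlapped with the early HLB, and ES-FLB, E10.5 HLB, Ca and TB each overlapped with the next. ES-FLB was below the early FLB by a log2 fold change of -1.88 ± 0.05 (SE, limma adjusted p = 7.34e-15), whereas ES-HLB was above the early HLB by 0.53 ± 0.09 (adjusted p = 0.00013) and above the E10.5 HLB by 0.94 ± 0.06 (adjusted p = 4.66e-16). The second of these missed the threshold of 0.001 without ES-HLB replicate 1, 2 or 3 and with limma's variance trend off, with adjusted p from 0.0016 to 0.0036. ES-FLB and the E10.5 FLB differed by -0.14 (95% interval -0.26 to -0.02, adjusted p = 0.038), which missed that threshold.

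Sema3f, a ligand of Nrp2, had nearly the reverse pattern in limb buds. It measured 54.2, 56.5 and 45.8 CPM in the early FLB, 93.5, 71.2 and 75.4 in the early HLB, 100.3, 104.9 and 109 in the E10.5 FLB and 89.8 and 94.6 in the E10.5 HLB. ES-FLB had 56.1, 48.7 and 60.7 CPM and ES-HLB 66.8, 60.8 and 67.6. Both ES-LB types were below both E10.5 limb buds with no overlap, and ES-FLB overlapped with the early FLB. BA had 81.1, 79.2 and 86.7 CPM, TB 60.1, 56.3 and 59.2, and Ca, the lowest tissue, 24.9, 27.4 and 28.4. Against the E10.5 limb bud of its own type, Sema3f fell by 0.93 on the log2 scale in ES-FLB (SE 0.07, limma adjusted p = 3.53e-12) and by 0.50 in ES-HLB (SE 0.07, adjusted p = 1.84e-07). The second call was lost with the variance trend off (adjusted p = 0.0035). Against the early limb buds the differences were 0.08 (95% interval -0.12 to 0.28) for ES-FLB and -0.29 (-0.49 to -0.09) for ES-HLB, neither past the threshold, though the second passed without early HLB replicate 2 (-0.37, adjusted p = 0.00098).

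Sema3c, which binds both neuropilins and is known for its part in the outflow tract of the heart, was highest in Ca. Ca libraries had 82.3, 55.1 and 66.4 CPM, TB 40.3, 44.1 and 38.9, and BA 20.3, 25.1 and 29.2. In limb buds it measured 29.0, 24.9 and 31.9 CPM in the early FLB, 11.96, 18.0 and 18.5 in the early HLB, 15.2, 15.9 and 14.9 in the E10.5 FLB and 14.9 and 13.6 in the E10.5 HLB. The ES-LB types did not overlap, with 19.9, 20.04 and 28.4 CPM in ES-FLB and 5.98, 7.32 and 9.07 in ES-HLB, the lowest of the 9 groups. ES-HLB was below the early HLB by -1.06 ± 0.18 (SE, limma adjusted p = 0.00016) and below the E10.5 HLB by -0.91 ± 0.17 (adjusted p = 1.62e-05). ES-FLB was above the E10.5 FLB by 0.54 ± 0.12 (adjusted p = 0.00033) and differed from the early FLB by -0.33 ± 0.14 (adjusted p = 0.048, not past the threshold). The rise over the E10.5 FLB missed the threshold without ES-FLB replicate 3, without any 1 of the E10.5 FLB replicates and in 2 other settings (adjusted p from 0.0012 to 0.016). The fall against the early HLB missed it without ES-HLB replicate 1 or 2 and in 2 other settings (0.0012 to 0.0060), and that against the E10.5 HLB with the trend off (0.0069). Without ES-FLB replicate 3, the difference from the early FLB passed it (-0.50, adjusted p = 0.00050).

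Sema3d, a relative of Sema3a that acts on neural crest, axons and endothelium, was low in early limb buds and highest in Ca. It measured 14.4, 13.4 and 15.2 CPM in the early FLB and 6.70, 7.66 and 6.89 in the early HLB. At E10.5 the FLB had 20.3, 23.3 and 25.2 CPM and the HLB 13.4 and 10.6. The hindlimb bud was the lower one at both stages, without overlap. In ES-FLB it measured 15.4, 17.3 and 14.3 CPM and in ES-HLB 17.9, 17.9 and 19.0. BA had 28.3, 32.4 and 24.2 CPM, Ca 37.6, 37.2 and 38.4, and TB 25.6, 24.2 and 23.0. ES-HLB was above the early HLB by 1.31 ± 0.11 (SE, limma adjusted p = 4.83e-08) and above the E10.5 HLB by 0.59 ± 0.14 (adjusted p = 0.00023). ES-FLB was below the E10.5 FLB by -0.53 ± 0.11 (adjusted p = 0.00015) and differed from the early FLB by 0.12 (95% interval -0.10 to 0.34). Both calls against E10.5 limb buds were lost in 4 settings each. For ES-HLB these were without ES-HLB replicate 2 or 3, without E10.5 HLB replicate 3 and with the trend off (adjusted p from 0.0017 to 0.015), and for ES-FLB without ES-FLB replicate 3, without E10.5 FLB replicate 2 or 3 and with the trend off (0.0012 to 0.0052).

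Sema3b, a ligand whose gene neighbours Sema3f, was low everywhere and was measured by 7 to 126 reads in a library. It had 4.33, 4.51 and 6.58 CPM in the early FLB, 3.67, 4.35 and 3.58 in the early HLB, 4.94, 5.62 and 5.72 in the E10.5 FLB and 3.81 and 4.41 in the E10.5 HLB. ES-FLB had 0.851, 1.17 and 2.18 CPM and ES-HLB 1.02, 2.95 and 1.43. Both ES-LB types lay below all limb bud libraries. Ca had 9.64, 9.40 and 9.01 CPM, TB 5.36, 6.63 and 6.52, and BA 2.47, 1.97 and 2.84. ES-FLB was below the early FLB by -1.61 ± 0.24 (SE, limma adjusted p = 2.63e-05) and below the E10.5 FLB by -1.70 ± 0.24 (adjusted p = 6.08e-07). Those 2 calls were lost with the trend off (adjusted p = 0.0016 and 0.0014). ES-HLB differed by -1.01 ± 0.26 from the early HLB (adjusted p = 0.0028) and by -1.09 ± 0.29 from the E10.5 HLB (adjusted p = 0.0010). Both were outside the threshold, the second only just. Without ES-HLB replicate 2, its highest library, both passed it (-1.35 and -1.43, adjusted p = 0.00011 and 0.00023). Both also passed with the replicate number as a block and with all libraries in 1 model. The second passed as well with a pseudocount of 1 and with limma-voom on reads recovered from the CPM.

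Sema3e, the ligand of Plxnd1, was the lowest of the 8 per kilobase, at 5 to 126 reads in a library. TB stood apart with 8.36, 13.5 and 12.5 CPM. The early FLB had 4.17, 3.55 and 6.58 CPM, the early HLB 2.18, 3.15 and 3.36, the E10.5 FLB 1.70, 2.31 and 0.867 and the E10.5 HLB 2.00 and 2.47. ES-FLB had 1.95, 1.69 and 1.94 CPM, ES-HLB 1.53, 0.844 and 1.67, BA 2.81, 4.99 and 3.78, and Ca 4.04, 1.96 and 4.78. All neighbours in the order from the early FLB down to the E10.5 HLB overlapped. ES-FLB was below the early FLB by -1.12 ± 0.20 (SE, limma adjusted p = 8.14e-05), which missed the threshold with the trend off and with limma-voom on reads recovered from the CPM (adjusted p = 0.0021 and 0.0026). ES-HLB differed from the early HLB by -0.89 ± 0.23 (adjusted p = 0.0023), and passed without early HLB replicate 1 (-1.05, adjusted p = 0.00071). The intervals against the E10.5 limb buds were -0.35 to 0.76 for ES-FLB and -1.19 to 0.01 for ES-HLB, so a fall of a log2 unit was not excluded for ES-HLB.

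Nrp1, the receptor for Sema3a and for VEGF-A, was highest in Ca with 241, 242 and 250 CPM. In the early FLB it measured 68.7, 54.1 and 83.3 CPM, in the early HLB 60.7, 51.5 and 50.8, in the E10.5 FLB 82.6, 85.7 and 94.5, and in the E10.5 HLB 86.2 and 87.2. Both ES-LB types were above every limb bud library, with 125, 133 and 132 CPM in ES-FLB and 114, 105 and 113 in ES-HLB. TB had 105, 98.8 and 100.2 CPM and BA 61.9, 48.3 and 57.2. Against the early HLB, ES-HLB was higher by 1.03 ± 0.07 (SE, limma adjusted p = 4.37e-09). Against the E10.5 limb buds, ES-FLB was higher by 0.57 ± 0.06 (adjusted p = 6.70e-10) and ES-HLB by 0.35 ± 0.07 (adjusted p = 1.32e-05, and 0.0080 or 0.013 with the trend off or with all libraries in 1 model). The difference of ES-FLB from the early FLB was as large (0.94 ± 0.16) but missed the threshold (adjusted p = 0.0022), with early FLB libraries spread from 54.1 to 83.3 CPM. Without early FLB replicate 2 or 3 it passed (0.78 and 1.09, adjusted p = 2.10e-07 and 8.83e-09).

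Nrp2, the receptor for Sema3f and for VEGF-C, was highest in E10.5 limb buds, with 312, 282 and 304 CPM in the FLB and 257 and 270.5 in the HLB. TB was close, with 243, 266 and 253 CPM. The early FLB had 128, 117 and 158 CPM, the early HLB 173, 151 and 149, ES-FLB 155, 153 and 160.4, ES-HLB 171, 161 and 180.0, and BA 146, 138 and 146. These 5 groups lay in 1 band, and Ca alone was below it, with 61.1, 65.1 and 84.8 CPM. Nrp2 was lower than in the E10.5 limb bud by -0.93 ± 0.04 in ES-FLB (SE, limma adjusted p = 8.46e-17) and by -0.63 ± 0.06 in ES-HLB (adjusted p = 1.36e-12). With the trend off, the call of ES-HLB was lost (adjusted p = 0.0016). Against the early limb buds the differences were 0.23 (95% interval -0.0028 to 0.46) and 0.12 (-0.02 to 0.25), and the first passed without early FLB replicate 3 (0.35, adjusted p = 1.28e-05).

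The balance within the family was set out as ratios of CPM within a library, chosen after the values were seen, not corrected for length and given without a test. There were 1.97 ± 0.17 (SD, n = 3) Nrp2 reads per Nrp1 read in the early FLB, 2.91 ± 0.048 in the early HLB, 3.42 ± 0.31 in the E10.5 FLB and 3.04 ± 0.085 (n = 2) in the E10.5 HLB. ES-FLB had 1.202 ± 0.051 and ES-HLB 1.54 ± 0.044, below every limb bud library. BA (2.60 ± 0.25) and TB (2.51 ± 0.19) were among the limb buds, and Ca had 0.287 ± 0.046, so that Nrp1 reads outnumbered Nrp2 reads in Ca alone. The ratio of Sema3a to Sema3f was 5.34 ± 0.55 in the early FLB, 1.27 ± 0.34 in the early HLB, 0.785 ± 0.032 in the E10.5 FLB and 0.805 ± 0.036 in the E10.5 HLB. It was 1.37 ± 0.22 in ES-FLB, 2.20 ± 0.076 in ES-HLB, 1.34 ± 0.15 in BA, 2.56 ± 0.21 in Ca and 1.10 ± 0.063 in TB.

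**Figure D2:**
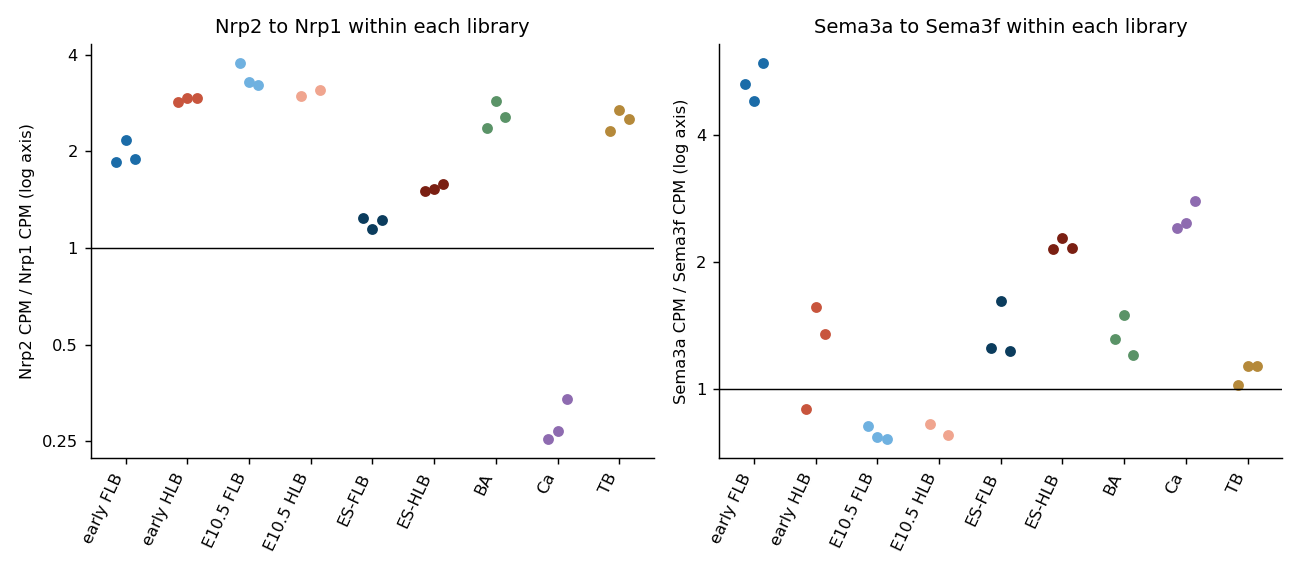
Ratio of Nrp2 to Nrp1 CPM (left) and of Sema3a to Sema3f CPM (right) within each of 26 libraries, on log axes with a line at equal CPM; points are libraries. ES-LB libraries (1.14 to 1.59) lie below all limb bud libraries (1.86 to 3.78) for Nrp2 to Nrp1, and Ca (0.253 to 0.339) lies below 1.

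ES-LB was compared with the limb bud of its type. Culture, sorting, mouse strain or line and cell make-up all differ between the 2 and cannot be told apart. Against the early limb buds, sequencing depth differs as well. Of the 8 genes, 3 fell in ES-FLB against the early FLB (Sema3a, Sema3b and Sema3e), where 65.8% of all genes tested passed the same threshold (adjusted p below 0.001). In ES-HLB against the early HLB, 3 rose (Sema3a, Sema3d and Nrp1) and 1 fell (Sema3c), against 60.0% of all genes. Against the E10.5 FLB, 2 rose in ES-FLB (Sema3c and Nrp1) and 4 fell (Sema3b, Sema3d, Sema3f and Nrp2), against 52.4% of all genes. Against the E10.5 HLB, 3 rose in ES-HLB (Sema3a, Sema3d and Nrp1) and 3 fell (Sema3c, Sema3f and Nrp2), against 53.5% of all genes. With 8 genes these counts, some below and some above the background, are not read as a result about the family. Median log2 fold changes of the 8 were -0.13, -0.09, -0.33 and -0.55 in this order, and those of all genes were between -0.01 and 0.01. Comparisons of 1 ES-LB type with both stages share its libraries.

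**Figure D3:**
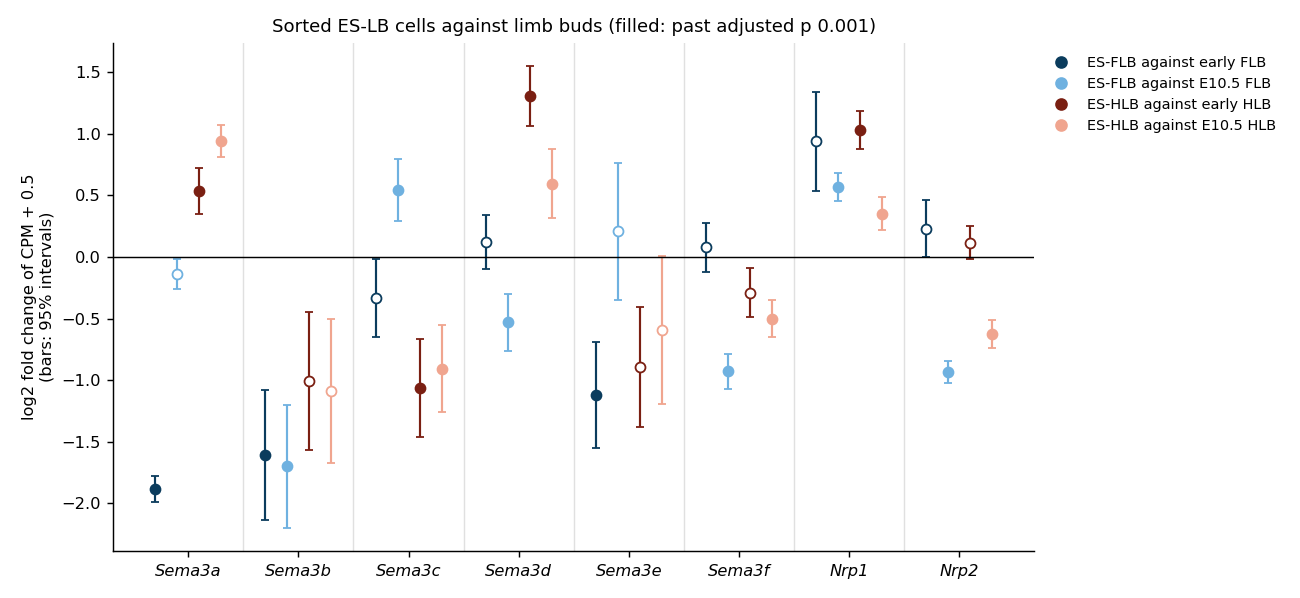
Log2 fold change of CPM + 0.5 (limma) of the 8 genes in sorted ES-LB cells against the limb bud of the same type; bars are 95% intervals, and filled points passed an adjusted p of 0.001. Nrp1 is above 0 in all 4 comparisons (0.35 to 1.03) and Sema3b below 0 in all 4 (-1.70 to -1.01), while Sema3a is at -1.88 for ES-FLB and at 0.53 for ES-HLB against the early limb buds.

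Between the stages, the forelimb bud changed in 6 of the 8 genes (42.3% of all genes tested passed the threshold of 0.001). Sema3a fell by 1.74 on the log2 scale (SE 0.05, limma adjusted p = 3.31e-15), Sema3c by 0.87 (SE 0.10, adjusted p = 5.03e-07) and Sema3e by 1.33 (SE 0.27, adjusted p = 0.00061). Sema3f rose by 1.00 ± 0.07 (adjusted p = 2.28e-09), Nrp2 by 1.16 ± 0.11 (adjusted p = 0.00013) and Sema3d by 0.65 ± 0.10 (adjusted p = 2.49e-05). Thus Sema3f and Nrp2 were higher at E10.5, while Sema3a and Sema3c, which binds both neuropilins, were lower. Among the markers, 8 of 11 of surface ectoderm were lower at E10.5 (median log2 fold change -0.49, summed 340 to 362 CPM against 465 to 579), 4 of 7 of muscle precursors were higher (0.90, 98.2 to 103 CPM against 53.2 to 61.9), and of 6 tested for neural crest and glia 3 were higher and 1 lower (0.54). The part of these cells in the stage changes was not tested. The call of Sema3e was lost in 9 of 15 alternatives, among them without early FLB replicate 1 or 3 and without E10.5 FLB replicate 1 or 3 (adjusted p from 0.0018 to 0.011 over the 9), and its E10.5 values rest on 5 to 14 reads. Nrp2 missed the threshold without early FLB replicate 1 or E10.5 FLB replicate 3 (adjusted p = 0.0018 to 0.0019) and Sema3d with the trend off (0.0015). Nrp1 differed by 0.37 ± 0.17 (adjusted p = 0.11) and passed without early FLB replicate 3 (0.52, adjusted p = 8.86e-05).

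In the hindlimb bud 2 of the 8 genes passed between the stages, against 4.62% of all genes. They were the neuropilins, with Nrp1 higher at E10.5 by 0.67 ± 0.08 (SE, limma adjusted p = 0.00034) and Nrp2 by 0.74 ± 0.07 (adjusted p = 7.76e-05). Both calls were lost without E10.5 HLB replicate 1 or 3 and with the trend off, and that of Nrp1 also without early HLB replicate 3, without a filter on low genes and with limma-voom, with adjusted p up to 0.019 for Nrp1 and 0.016 for Nrp2. Sema3a differed by -0.41 ± 0.10 (adjusted p = 0.018) and passed without early HLB replicate 1 (-0.52, adjusted p = 9.10e-05). Sema3d differed by 0.72 ± 0.16 (adjusted p = 0.0063). The 95% intervals of Sema3c (-0.55 to 0.24), Sema3f (-0.03 to 0.45), Sema3e (-0.83 to 0.22) and Sema3b (-0.34 to 0.50) included 0. By the study's own dating the interval between the stages is longer in the forelimb than in the hindlimb bud, so the limb and the length of the interval cannot be told apart in what follows. The difference of the stage change between the limbs, a comparison added after the values were seen, passed an adjusted p of 0.05 for 3 of the 8 genes (23.0% of all genes). Hindlimb minus forelimb, it was 1.34 ± 0.11 for Sema3a (adjusted p = 2.96e-07), 0.72 ± 0.20 for Sema3c (adjusted p = 0.017) and -0.79 ± 0.14 for Sema3f (adjusted p = 0.0013). The call of Sema3c was lost without E10.5 HLB replicate 1 and in 3 other settings (0.061 to 0.18). Those of Nrp1 (0.47, adjusted p = 0.017) and Sema3e (1.19 and 1.26, adjusted p = 0.050 and 0.028) were gained without early FLB replicate 2, or for Sema3e also without E10.5 FLB replicate 2, and that of Nrp2 (-0.54, adjusted p = 0.00052) without early FLB replicate 3.

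Hindlimb against forelimb was compared at each stage and in culture, at an adjusted p of 0.05. With the early HLB dated later than the early FLB in the study's text, limb type and stage cannot be told apart between the early limb buds, and Sema3a, Sema3c, Sema3d and Sema3f also differed between the stages of the forelimb bud (-1.74, -0.87, 0.65 and 1.00, as above). In the early limb buds 4 of the 8 genes passed, against 20.3% of all genes. Sema3a was lower in the hindlimb by -1.49 ± 0.09 (SE, limma adjusted p = 2.49e-05), Sema3d by -0.97 ± 0.10 (adjusted p = 8.81e-05) and Sema3c by -0.82 ± 0.18 (adjusted p = 0.017), and Sema3f was higher by 0.61 ± 0.12 (adjusted p = 0.0099). Of these, Sema3a, Sema3c and Sema3f differed in the direction of that stage change and Sema3d in the opposite one. Both comparisons share the early FLB libraries, so their directions are not independent. Endothelial markers were higher in the early HLB for 6 of 11 (median 0.34, summed 378 to 452 CPM against 341 to 349). Sema3c missed the threshold without early FLB replicate 1 or 3 (adjusted p = 0.050 to 0.065). Nrp1 passed without early FLB replicate 2 (-0.48, adjusted p = 0.020) and Nrp2 without early FLB replicate 3 (0.36, adjusted p = 0.012). At E10.5, 3 passed, against 24.5% of all genes: Sema3d with -0.91 ± 0.14 (adjusted p = 4.87e-07), Nrp2 with -0.18 ± 0.05 (adjusted p = 0.0034) and Sema3f with -0.18 ± 0.06 (adjusted p = 0.029). The calls of Nrp2 and Sema3f were lost without E10.5 HLB replicate 1, that of Nrp2 without E10.5 FLB replicate 1, that of Sema3f without E10.5 FLB replicate 2 or 3, and both in 2 other settings, with adjusted p from 0.054 to 0.28. Sema3a (-0.15 ± 0.07, adjusted p = 0.12) passed on the CPM as deposited (-0.21, adjusted p = 0.018). Of the markers, 4 of 6 tested for neural crest and glia (median -0.90) and 5 of 7 for muscle precursors (-0.65) were lower in the E10.5 HLB. The part of these cells in the differences between limb buds was not tested. Sema3d was thus the gene of the 8 that was lower in the hindlimb bud at both stages past the threshold.

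In ES-HLB against ES-FLB, 4 of the 8 genes passed, against 24.8% of all genes. ES-FLB was given retinoic acid and ES-HLB the antagonist, so limb type and treatment cannot be told apart in culture. In the early limb buds, limb type and stage cannot be told apart, as above. Sema3a was higher by 0.93 ± 0.06 (SE, limma adjusted p = 2.04e-15) and Sema3f by 0.24 ± 0.07 (adjusted p = 0.014), and Sema3c was lower by -1.55 ± 0.15 (adjusted p = 2.31e-09) and Nrp1 by -0.23 ± 0.05 (adjusted p = 0.0011). Sema3a and Sema3c kept their calls under all 15 alternatives. Sema3f missed the threshold without ES-FLB replicate 2, without ES-HLB replicate 1 or 3 and with the trend off (adjusted p from 0.060 to 0.16), Nrp1 with all libraries in 1 model (0.15), and Nrp2 (0.13 ± 0.05, adjusted p = 0.056) passed without ES-HLB replicate 2 and in 4 other settings (0.013 to 0.049). In ES-HLB, 6 of 9 surface ectoderm markers tested (median 0.79, summed 232 to 249 CPM against 119 to 180.0) and 4 of 11 endothelial markers (0.41, 61.8 to 66.0 CPM against 46.2 to 47.1) were higher than in ES-FLB, with 0 lower in either list, and their part in the result was not tested. A test of whether the difference between limb types was itself different in culture, over the ES-LB and early limb bud libraries, passed for 2 of the 8 genes, against 22.5% of all genes. In vitro minus in vivo, it was 2.42 ± 0.11 for Sema3a (adjusted p = 5.57e-11) and 1.19 ± 0.15 for Sema3d (adjusted p = 5.22e-06), each under all 21 alternatives. For Sema3c it was -0.73 ± 0.28 (adjusted p = 0.082), which passed without early HLB replicate 1 or ES-HLB replicate 3 and in 2 other settings (0.0045 to 0.046), and for Sema3f -0.37 ± 0.15 (adjusted p = 0.11), which passed without early HLB replicate 2 or ES-FLB replicate 2 and in 1 other (0.030 to 0.044). So Sema3a was higher in the forelimb type in early limb buds and in the hindlimb type in culture, and at E10.5 it did not pass in either direction (-0.15, adjusted p = 0.12). Sema3c was lower in the hindlimb type in culture and in early limb buds, where the call depended on 2 libraries as above, and did not pass at E10.5 (-0.10, adjusted p = 0.66).

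**Figure D4:**
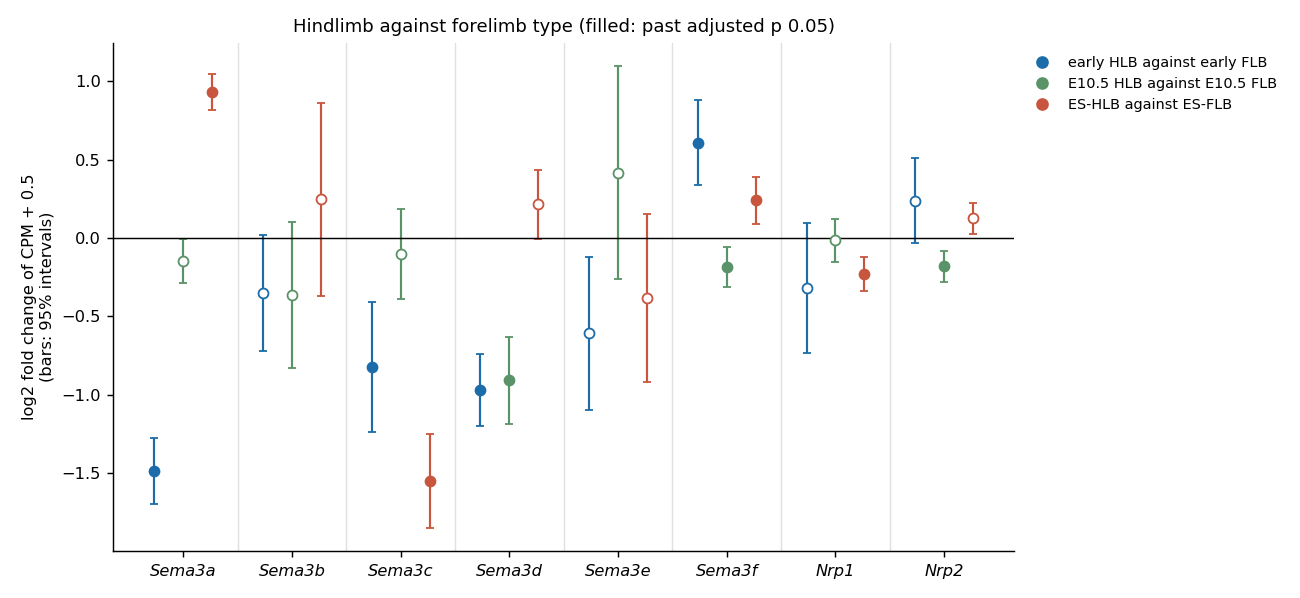
Log2 fold change of CPM + 0.5 (limma) of the 8 genes in hindlimb against forelimb type, in early limb buds, E10.5 limb buds and ES-LB; bars are 95% intervals and filled points passed an adjusted p of 0.05. Sema3a is at -1.49 in early limb buds and 0.93 in ES-LB, and Sema3d at -0.97 and -0.91 in the 2 stages of limb bud.

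The 3 other tissues were set against the mean of both E10.5 limb buds at an adjusted p of 0.05, in 1 model of all 26 libraries. In Ca all 8 genes passed, against 76.2% of all genes. Sema3c was higher by 2.15 ± 0.16 (SE, limma adjusted p = 4.20e-11), Nrp1 by 1.48 ± 0.10 (adjusted p = 3.30e-12), Sema3d by 1.17 ± 0.10 (adjusted p = 1.03e-12), Sema3b by 0.92 ± 0.21 (adjusted p = 0.00025) and Sema3e by 0.72 ± 0.25 (adjusted p = 0.011). Nrp2 was lower by -2.004 ± 0.09 (adjusted p = 2.14e-14), Sema3f by -1.85 ± 0.08 (adjusted p = 1.28e-19) and Sema3a by -0.18 ± 0.07 (adjusted p = 0.024). Heart tissue thus had less Nrp2 and Sema3f than limb buds, and more Nrp1 and Sema3c, which binds both neuropilins. Endothelial markers were higher in Ca for 8 of 11 and lower for 2 (median 1.23, summed 939 to 1031 CPM against 327 to 368), and limb mesenchyme markers were lower for 8 of 10 (-2.02, 475 to 599.5 CPM against 1872 to 2081). Surface ectoderm markers were lower for 9 of 11 (-2.94) and muscle precursor markers for 7 of 7 (-2.22), and the part of these cells in the result was not tested. Sema3a lost its call in 5 settings, without Ca replicate 1 or 2 or E10.5 HLB replicate 1 among them (adjusted p from 0.053 to 0.29), and Sema3e in 3, without Ca replicate 1 or 3 among them (0.059 to 0.10).

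In BA all 8 genes passed as well, against 32.3% of all genes. Nrp2 (-0.96 ± 0.09, SE, limma adjusted p = 5.11e-08), Nrp1 (-0.64 ± 0.10, adjusted p = 1.92e-05), Sema3b (-0.84 ± 0.21, adjusted p = 0.0024) and Sema3f (-0.25 ± 0.08, adjusted p = 0.012) were lower. Higher were Sema3d (0.75 ± 0.10, adjusted p = 2.13e-07), Sema3a (0.49 ± 0.07, adjusted p = 4.40e-06), Sema3c (0.72 ± 0.16, adjusted p = 0.0015) and Sema3e (0.86 ± 0.25, adjusted p = 0.0096). Both neuropilins were thus below their limb bud level and 4 of the 6 ligands above it. Sema3f and Sema3e lost their calls without BA replicate 2 (-0.23 and 0.68, adjusted p = 0.057 and 0.075), Sema3f also on the CPM as deposited (0.062) and Sema3e with limma-voom (0.067). Neuron markers summed to 156 to 460 CPM in BA and 130.3 to 146 in the E10.5 limb buds. Of them, 10 of 11 were higher in BA and 1 lower, and 5 of 7 neural crest and glia markers tested were higher. Limb mesenchyme markers were higher for 1 and lower for 5 of 10, and surface ectoderm markers higher for 4 and lower for 3 of 11. Muscle precursor markers were lower for 3 of 7 and cardiac muscle markers higher for 4 of 8. The part of these cells in the result was not tested.

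In TB 5 of the 8 genes passed, against 45.5% of all genes. Sema3e was higher by 2.31 ± 0.25 (SE, limma adjusted p = 6.43e-09), Sema3c by 1.44 ± 0.16 (adjusted p = 1.44e-07) and Sema3d by 0.54 ± 0.10 (adjusted p = 2.39e-05). Sema3f was lower by -0.74 ± 0.08 (adjusted p = 2.36e-09) and Sema3a by -0.28 ± 0.07 (adjusted p = 0.0023). The neuropilins were near the limb buds, Nrp1 with 0.22 (95% interval 0.02 to 0.42, adjusted p = 0.072, and 0.045 on the CPM as deposited) and Nrp2 with -0.14 (-0.33 to 0.05). Limb mesenchyme markers were lower in TB for 10 of 10 (median -3.18, summed 461 to 508 CPM against 1872 to 2081), and neural crest and glia markers were higher for 6 of 7 tested (1.81, 159 to 169 CPM against 52.1 to 96.96), as were 5 of 7 for muscle precursors, with 2 lower (1.45, 177 to 204 CPM against 67.0 to 103). Neuron markers were higher for 7 of 11 and lower for 2 (2.15), while their sum was below that of the limb buds (80.7 to 121 CPM against 130.3 to 146). The part of these cells in the result was not tested. With the E10.5 FLB alone as the reference, Sema3d lost its call (0.08, adjusted p = 0.55). The contrasts with Ca, BA and TB share the limb bud libraries.

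Class A plexins, the partners of neuropilins, and the other plexins were read from a list of 9, of which 8 were tested in limb comparisons. Plxnb3 was listed at 0 in every library of 5 groups and reached 0.964 CPM in Ca. In ES-FLB against the early FLB 4 of the 8 rose and 2 fell, and in ES-HLB against the early HLB 5 rose and 1 fell (medians 0.21 and 0.35), so that 6 of 8 passed in each, where 65.8% and 60.0% of all genes did. Plxnd1, the receptor of Sema3e and a gene of endothelium, had 49.1 and 49.97 CPM in ES-FLB and ES-HLB against 152 to 193 in the limb buds, and fell by 1.91 and 1.94 against the early ones (SE 0.07 in both, limma adjusted p = 3.28e-13 and 2.38e-12). Plxnc1, the receptor of Sema7a, had 24.5 and 10.3 CPM against 3.08 to 3.85, and rose by 2.81 and 1.56. Plxna4, which pairs with Nrp1 for Sema3a, had 60.2 CPM in the early FLB and 11.8 in the early HLB (log2 fold change -2.30), 24.9 and 8.25 at E10.5 (-1.54), but 43.8 and 39.2 in ES-FLB and ES-HLB (-0.15, not past the threshold). In the early limb buds, which may not be matched in stage, its drop from forelimb to hindlimb went in the same direction as that of Sema3a. At E10.5 Sema3a did not pass (-0.15, limma adjusted p = 0.12). The difference of Plxna4 between culture and embryo was 2.14 ± 0.24 (SE, limma adjusted p = 7.71e-05). Plxna2 had 143 CPM in the early FLB, 82.4 in the early HLB and 50.1 and 52.7 at E10.5, and fell by 1.51 in the forelimb. Plxna3 rose in both ES-LB types by 1.01 and 0.81, and Plxna1 was at 208 to 227 CPM in all limb groups. In Ca, Plxna4 (114 CPM), Plxnc1 (52.7) and Plxnd1 (359) were above the E10.5 limb buds and Plxna1 (109) and Plxna3 (22.3) below.

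VEGF ligands and receptors, the other partners of neuropilins, split by role in ES-LB. All 3 receptors fell in ES-FLB and in ES-HLB against the early limb buds, and of the 8 genes 5 and 7 passed, where 65.8% and 60.0% of all genes did. Kdr, the main VEGF receptor of endothelium, had 8.04 and 12.7 CPM in ES-FLB and ES-HLB against 66.2 to 112 in the limb buds (log2 fold change -3.72 and -2.96), Flt4, that of lymphatic endothelium, 3.19 and 2.83 against 22.4 to 40.1 (-3.37 and -3.59), and Flt1, a decoy receptor, 7.31 and 10.2 against 16.6 to 27.4 (-1.84 and -1.01). Among the 5 ligands 2 rose in ES-FLB (Pgf and Vegfc) and 4 in ES-HLB (Vegfa, Vegfc, Figf and Pgf). Vegfa, which binds Nrp1, had 140.1 and 137 CPM in ES-FLB and ES-HLB and 45.9 to 76.9 in limb buds, and rose in ES-HLB by 1.57 against the early HLB, while the 0.84 of ES-FLB against the early FLB did not pass. Vegfc, which binds Nrp2, had 31.2 and 34.2 CPM against 11.7 to 20.9, and rose by 0.85 and 0.71. The endothelial markers moved with the receptors: 9 of 11 fell in ES-FLB and 10 of 11 in ES-HLB against the early limb buds (medians -3.32 and -2.92), with Cdh5 at 6.77 and 9.30 CPM against 84.7 to 113 and none at 0. Their part in the levels of Kdr, Flt1, Flt4 and Plxnd1 was not tested. Nrp1 and Nrp2, which endothelium also expresses, were not called lower in ES-LB against the early limb buds. Against the E10.5 limb buds, Nrp2 fell in ES-FLB and ES-HLB (-0.93 and -0.63) and Nrp1 rose (0.57 and 0.35), with 9 of 11 endothelial markers lower in each. The part of endothelium in the neuropilin levels was not tested.

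**Figure D5:**
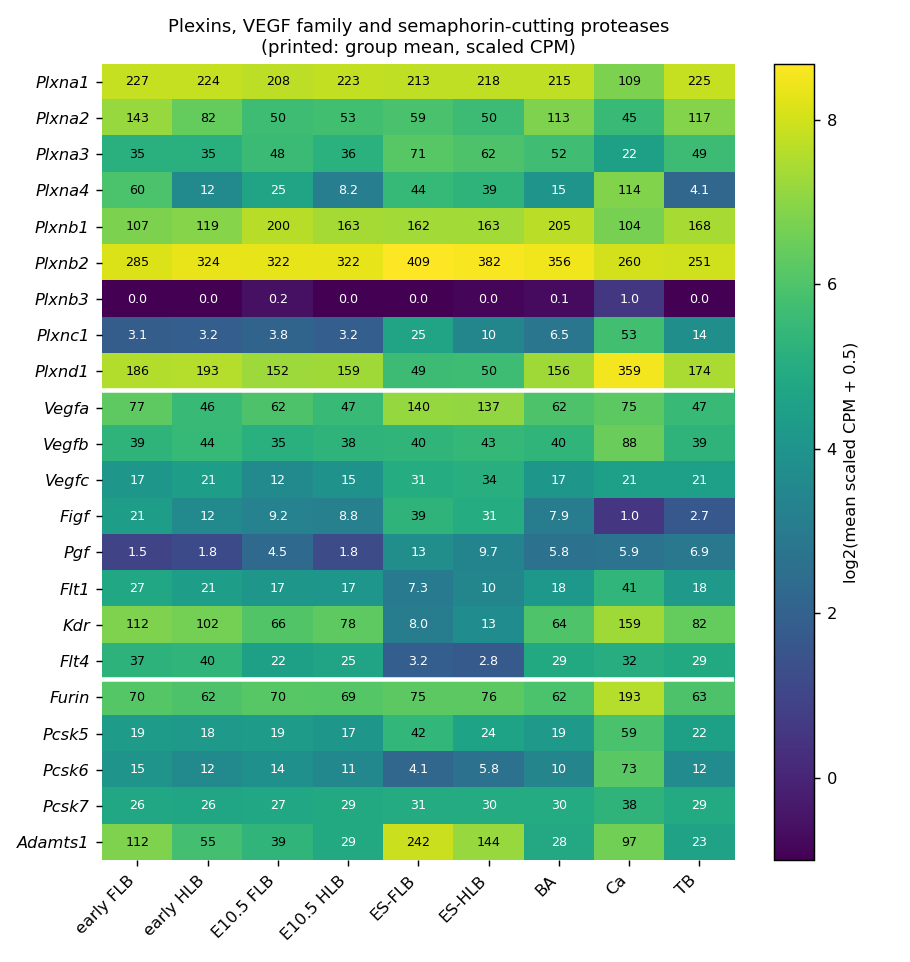
Group means of scaled CPM (printed) and their log2 (colour) for 9 plexins, 8 VEGF ligands and receptors and 5 proteases in 9 groups. Plxnd1, Kdr and Flt4 are lower in the 2 ES-LB columns (49.1 and 49.97, 8.04 and 12.7, 3.19 and 2.83 CPM) than in the 4 limb bud columns, and Plxnc1 and Adamts1 higher.

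Proteases that cut class 3 semaphorins were read from a list of 5. Furin, which processes the ligands to their active form, had 62.0 to 76.0 CPM in all 6 limb groups and 193 in Ca, and rose by 0.29 in ES-HLB against the early HLB. Pcsk5 had 42.1 CPM in ES-FLB and 24.3 in ES-HLB against 17.1 to 19.4 in limb buds, and rose in both against the early limb buds (1.12 and 0.45). Pcsk6 fell by 1.82 in ES-FLB and fell by 0.99 in ES-HLB, from 15.5 and 12.04 CPM to 4.06 and 5.84. Adamts1 was at 242 CPM in ES-FLB and 144 in ES-HLB, against 112 in the early FLB, 55.4 in the early HLB and 29.2 to 39.4 at E10.5, and rose by 1.11 in ES-FLB against the early FLB, while the 1.40 of ES-HLB against the early HLB did not pass. In Ca all 5 were higher than in E10.5 limb buds (median 1.497), where 76.2% of all genes passed in either direction, and Pcsk7 was the one that moved least (0.45).

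Co-receptors, effectors and adaptors were a list of 25, of which 13 rose and 6 fell in ES-FLB, and 11 rose and 5 fell in ES-HLB, against the early limb buds (24 tested in each, medians 0.50 and 0.31). That is 19 and 16 called, where 65.8% and 60.0% of all genes passed. Mical2, an actin oxidase downstream of plexins, rose most, by 3.03 in ES-FLB and 3.46 in ES-HLB (43.8 and 30.3 CPM against 2.15 to 4.96 in limb buds), and was at 465 CPM in Ca. Dpysl3, of the collapsin response mediators, rose by 2.19 in ES-FLB (172 CPM against 37.9), and Crmp1, of the same family, fell by 2.05 and 2.60 (34.0 and 34.5 CPM against 143 and 212). Between the stages 7 of 23 tested rose and 1 fell in the forelimb bud, where 42.3% of all genes passed. In TB, Nrcam and Chl1, adhesion partners of neuropilins, were higher by 3.99 and 3.92 (23.5 and 43.6 CPM). Neuron markers differed too: in ES-FLB 5 of 8 tested rose and 2 fell against the early FLB, and in TB 7 of 11 were higher and 2 lower than in E10.5 limb buds. Their sum was lower in TB (80.7 to 121 CPM) than in the E10.5 limb buds (130.3 to 146). The part of neurons in these results was not tested.

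Correlations across the 26 libraries describe which genes had the most similar patterns, and the points share tissue, depth and culture. Sema3f and Nrp2 had the highest r of any pair of the 8 (0.79), and Sema3f and Nrp1 the lowest (-0.73). Sema3a and Nrp1 had -0.44. Among the 4 genes of chromosome 5, r ranged from -0.27 (Sema3a and Sema3d) to 0.66 (Sema3c and Sema3e), and Sema3b and Sema3f, neighbours on chromosome 9, had -0.34. Among 10159 genes with a mean of at least 16 CPM in 1 of the groups, Rarg, a retinoic acid receptor (r = 0.95), Limd2 (0.95) and Megf6 (0.95) were most like Sema3f, Nkd2 (0.93), Meox2 (0.92) and Tub (0.88) most like Nrp2, and 2810432L12Rik (0.94), Anxa5 (0.93) and D5Ertd579e (0.93) most like Nrp1. Nearest to Sema3a were Tpr (0.88), Lrp4 (0.88) and AI314180 (0.82), to Sema3c Nav2 (0.89), Hsd3b6 (0.88) and Efha1 (0.88), and to Sema3d Bmper (0.89), Irs1 (0.88) and Sec14l1 (0.86). The 2 low genes were nearest to Sema4d (0.90), Hapln1 (0.90) and Ptgis (0.89) for Sema3b, and to Ptpn14 (0.86), Celsr1 (0.85) and Ptprj (0.83) for Sema3e.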

How the data were processed

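The authors made stranded mRNA libraries, read them as single ends, mapped them to mm10 with HISAT2 2.0.4 (version per the submitters' processing notes), counted reads per gene with Cuffdiff, and deposited the reads as CPM, a normalized value for every gene in every library, with equal totals. The notes also name Cufflinks 2.1.1, edgeR 3.16.2 and FastQC 0.11.5. The strand setting of the counting is not given in the sources used here. Groups and replicate numbers were taken from the labels, 1 of 27 libraries was left out, and depth was read from the spacing of low values, of which 95.7% to 99.5% lie within 0.1 of a whole read. Floors of 3 reads cover counting error only.

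Scaling factors for the 26 libraries came from trimmed means of log ratios without weights, trimming 30% by ratio and 5% by intensity. Genes at 1 CPM or more in as many libraries as the smallest group holds entered the limma 3.58.1 test as log2(CPM + 0.5) (trend and robust, R 4.3.3), with Benjamini-Hochberg adjustment over all genes tested. Fold changes on this scale understate those of low genes. ES-LB against limb buds and the stages were called at an adjusted p of 0.001, and all else at 0.05. A pair of groups used its own libraries, the difference between culture and embryo 12, and Ca, BA and TB all 26. Tests were checked on simulated data. Replicate numbers were not used to pair the libraries: in 0 of 36 pairs of groups did every correlation of same-numbered libraries exceed 0.1. With so few libraries in a group, this check cannot exclude pairing.

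The genes, lists, thresholds and tests were chosen with earlier results of these data known. Named are the 8 genes, the plexins, VEGF genes and proteases, the 3 largest changes of a list, and the 3 genes most like each of the 8; other genes named (Tbx5, Pitx1, Cdh5, Sema4d) were chosen after their values were seen. Exon lengths are unions of GENCODE exons. Alternatives were other scalings, filters, pseudocounts and models, a replicate block and each library left out. Python 3.11.15, numpy 2.4.6, pandas 2.3.3 and matplotlib 3.10.9 made the descriptions and figures.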

Additional observations from a re-analysis of the deposited data

Results flagged for a closer look

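Results here are those in which a change differed between groups by a test of the difference itself (limma, adjusted p below 0.05), among the 8 genes and the plexins. For the difference between hindlimb and forelimb type in ES-LB minus that in early limb buds, on the log2 scale, these were Sema3a (2.42), Sema3d (1.19), Plxna4 (2.14), Plxnc1 (-1.25) and Plxnb2 (-0.29). Plxnb2 is a plexin of class 4 semaphorins, with 409 and 382 CPM in ES-FLB and ES-HLB and 285 and 324 in the early FLB and HLB.

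For the stage change from early to E10.5 in the hindlimb bud minus that in the forelimb bud, a comparison added after the values were seen, these were Sema3a (1.34), Sema3c (0.72), Sema3f (-0.79), Plxna2 (0.88), Plxna3 (-0.43) and Plxnb1 (-0.44). Plxnb1 rose from 107 to 199.6 CPM in the forelimb bud and had 119 and 163 in the hindlimb bud. The early limb bud libraries are deeper than those of E10.5 in both limbs. Both comparisons use the early limb buds, whose forelimb and hindlimb libraries may not be matched in stage. In ES-LB, limb type and retinoic acid treatment cannot be told apart.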

How the results depend on the processing

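Of 1792 values of the 8 genes under alternatives to the 112 reported ones, 1662 stayed on the same side of the threshold, 85 lost the call and 45 gained one. Of the 1662, 1645 kept their direction and 17, of 10 results that were not called, changed sign, as did 0 of the called values. With the variance trend and robust estimation off, the genes passing (of 8) went from 3 to 1 for ES-FLB against early FLB, 4 to 2 for ES-HLB against early HLB, 6 to 3 for ES-FLB against E10.5 FLB, 6 to 1 for ES-HLB against E10.5 HLB, 2 to 0 for E10.5 HLB against early HLB (adjusted p = 0.016 and 0.019 for the neuropilins, limma) and 3 to 1 for E10.5 HLB against E10.5 FLB. With all libraries in 1 model they went from 2 to 4 for E10.5 HLB against early HLB, 3 to 1 for E10.5 HLB against E10.5 FLB and 2 to 4 for the difference between culture and embryo. For E10.5 HLB against early HLB, 1 passed with no filter and 1 with limma-voom. The cause of these moves was not tested. Leaving out 1 library at a time gave 3 to 5 genes passing for ES-FLB against early FLB (5 without early FLB replicate 3), 2 to 5 for ES-HLB against early HLB (2 without ES-HLB replicate 1), 0 to 3 for E10.5 HLB against early HLB (0 without E10.5 HLB replicate 1 or 3), 1 to 3 for E10.5 HLB against E10.5 FLB (1 without E10.5 HLB replicate 1) and 2 to 5 for the stage change, hindlimb minus forelimb (5 without early FLB replicate 2).

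Over all genes, the calls for E10.5 HLB against early HLB went from 586 to 136 with no filter, 1353 with the block, 9 with the trend off, 95 with limma-voom, 1617 with 1 model and 7 to 1398 with 1 library left out. With the trend off they went from 6909 to 3833 for ES-FLB against E10.5 FLB, 7154 to 2757 for ES-HLB against E10.5 HLB, 5410 to 2814 for E10.5 FLB against early FLB and 3157 to 790 for E10.5 HLB against E10.5 FLB. Those for BA went from 4745 to 3012 with the E10.5 FLB as reference, those for early HLB against early FLB from 2541 to 1494 or 1692 without early FLB replicate 1 or early HLB replicate 3, and those for the stage change, hindlimb minus forelimb, from 3050 to 2018 without E10.5 HLB replicate 1.

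In the fit with the replicate number as a replicate block, 3, 5, 6 and 7 of the 8 passed in the 4 comparisons of ES-LB with limb buds (order of the report), 5 and 2 between stages, 5, 3 and 5 between limb types, 3 for culture minus embryo, 8, 8 and 6 for BA, Ca and TB and 4 for the added comparison; the same numbers are not known to mark paired libraries. edgeR's test on recovered reads was planned and not run, because not all low values lay on whole reads, and limma-voom, chosen after seeing the data, was run in its place. On CPM as deposited, the median of all genes lay between -0.10 and 0.23 (ES-FLB against early FLB) in place of -0.04 to 0.02, and the share of higher calls went from 48.7% to 63.4%, 48.6% to 61.7% and 50.6% to 60.9% (ES-FLB against early FLB, ES-HLB against early HLB and E10.5 HLB), 42.1% to 67.0% and 40.1% to 50.3% (stage, FLB and HLB), 44.7% to 61.8% and 53.2% to 31.0% (HLB against FLB, early and E10.5), 55.4% to 44.5% (culture minus embryo), 51.6% to 65.1% (BA), 50.3% to 60.4% (TB) and 55.5% to 28.9% (stage, hindlimb minus forelimb). Depth limits Sema3b and Sema3e, at 5 to 126 reads.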

Other observations

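Semaphorins of the other classes were a list of 14, which includes Sema3g, the remaining class 3 gene. In ES-FLB against the early FLB 7 rose and 3 fell, and in ES-HLB against the early HLB 6 rose and 4 fell (medians 0.40 and 0.36, 65.8% and 60.0% of all genes passing). Sema3g, known from endothelium, had 0.529 and 0.674 CPM in ES-FLB and ES-HLB and 6.72 to 8.98 in the limb buds, and fell by 2.90 and 2.64 on the log2 scale. Endothelial markers fell with it (9 and 10 of 11), and their part was not tested. Sema5a, a transmembrane guidance protein, was the most abundant of the list in ES-LB, at 509 and 309 CPM against 118 to 157 in limb buds, and rose by 1.74 and 1.38. Sema5b (9.54 and 9.01 CPM against 0.628 to 3.13) rose by 2.52 and 2.33, and Sema6a (81.1 and 73.3 against 18.9 to 48.7) by 2.07 and 1.60. Sema4d had 8.03 and 7.63 CPM in ES-LB against 15.8 to 18.0 and fell by 0.96 and 1.19.

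Sema6d separated the ES-LB types: it had 41.4 CPM in ES-FLB and 16.3 in ES-HLB (log2 fold change -1.31), with 23.9 to 30.7 in the 4 limb bud groups. In Ca it had 98.5 CPM and was higher than in E10.5 limb buds by 2.00. Of the 14, 3 were higher and 10 lower in Ca, where 76.2% of all genes passed in either direction. Among the lower ones were Sema5a (24.4 CPM, -2.60) and Sema4f (0.276 CPM, -2.46). From early to E10.5 in the forelimb bud Sema6c rose by 2.18 (8.46 to 39.8 CPM), Sema4f by 1.76 and Sema6a by 1.34.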
